A study of Rattus norvegicus with 47 samples.

Results

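The samples were 7 frozen pieces of rat liver that surrounded tumours, out of 47 arrays in the series. They were every frozen array labelled surrounding tissue, apart from those titled normal liver. The labels tie each piece to the lesions it served as control for. The control sets titled 10 N_3, 21 N and 23 N_2 belonged to carcinomas (3 arrays, animals 10, 21 and 23) and are called carcinoma sets here. The sets 10 N_1, 11 N, 14 N_1 and 23 N_1 belonged to nodules and adenomas (4 arrays, animals 10, 11, 14 and 23) and are called other sets. Animals 10 and 23 gave 1 piece to each kind, so the same liver could be compared with itself.

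All 7 pieces came from male Wistar rats that had been given the same treatment. At 4 weeks of age the animals received a single dose of N-nitrosomorpholine (NNM), a liver carcinogen that starts tumours, at 250 mg/kg. After 3 weeks of recovery they drank phenobarbital (PB), a drug that promotes the growth of initiated liver cells, at 50 mg/kg/day for up to 17 months. No untreated liver was among these groups, so a change shared by every treated liver could not be seen. The 2 frozen arrays titled normal came from 1 animal, C43, whose labels carry the same NNM and PB doses. The frozen lesions used beside them were 8 carcinomas of the carcinoma sets, 4 of them labelled for beta-catenin, and 11 lesions of the other sets, 5 nodules and 6 adenomas.

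Liver beside a tumour is mostly hepatocytes, with Kupffer cells (liver macrophages), endothelium, stellate cells and bile ducts. Hepatocytes make the plasma and acute phase proteins, conjugate foreign compounds to glutathione, and divide their metabolism between the periportal and pericentral ends of the lobule. PB acts on them through the nuclear receptor CAR, which raises drug-metabolising enzymes. Such tissue is the reference against which a lesion is read, so a difference between pieces enters each comparison that uses them.

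Each piece was read as liver. Alb, the main plasma protein of hepatocytes, lay at the 100th percentile of all genes on each of the 7 arrays, between 15.03 and 15.13 on the log2 scale of the deposited values. Alb did not differ by kind of set (difference -0.02 ± 0.08 SE, limma adjusted p = 0.915). Values correlated between arrays at r = 0.981 to 0.994 across 14217 genes, which are not independent replicates. The first principal component held 34.2% of the variance, with the carcinoma sets at 14.1 to 22.0 and the other sets at -23.4 to -3.66. The labels name no batch, and the kind of set goes with the type of lesion it was paired with. What made the kinds differ, including how the pieces were handled, cannot be told apart from the lesion they lay beside.

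The liver of the carcinoma sets held 438 genes at a higher level and 455 at a lower level than the liver of the other sets. These were 3.08% and 3.2% of the 14217 genes tested (limma on the 7 arrays, Benjamini-Hochberg adjusted p under 0.05), and 6.28% were called either way. Those shares are to be set beside the counts of each list below. In every called gene the 2 groups did not overlap, so a lack of overlap given below adds nothing to the call. Over all genes 7.33% had non-overlapping groups in the higher direction and 16.8% in the lower. The 2 directions differed in size. Of the higher genes 85 were at least 2-fold higher (0.598% of all genes), and of the lower genes 3 were at least 2-fold lower (0.0211%). The called higher genes had a median difference of 0.70 and the called lower genes a median size of 0.49, on the log2 scale. Among all genes 33.9% had a positive difference, and the median difference was -0.09. p-values here measure the spread between pieces, from 5 animals in all. This main fit had no term for animal, so pieces of the same animal were treated as independent. In bulk tissue, fewer cells of a type and less RNA per cell cannot be told apart.

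**Figure D1:**
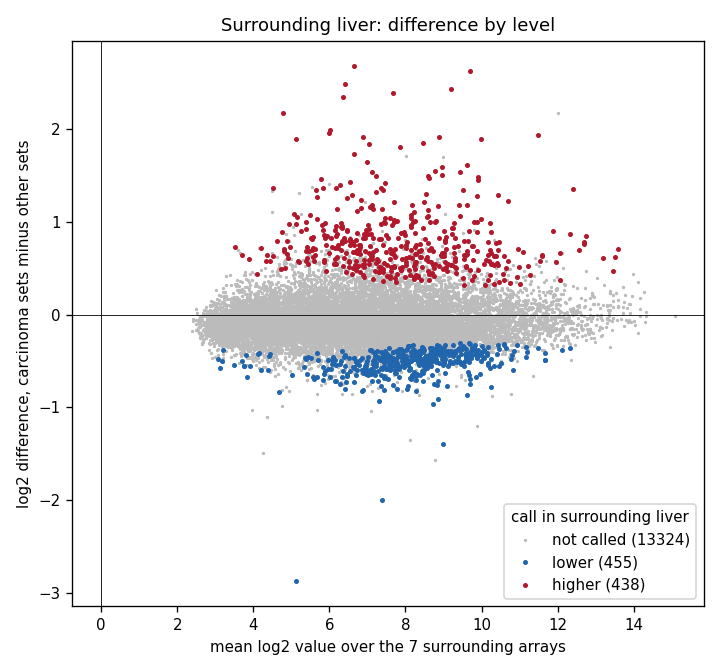
Each point is 1 of 14217 genes, with its mean log2 value over the 7 surrounding arrays on the x axis and its log2 difference (carcinoma sets minus other sets) on the y axis. Red and blue mark the 438 genes called higher and the 455 called lower. The red points reach 2.68, while 3 blue points lie below -1.

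The calls were spread over the range of levels but were rare among dim genes. With the genes put in 4 equal classes by level, 19 were called higher and 18 lower in the lowest class, against 160 and 194 in the highest. The number of calls depended on each array. Without the carcinoma-set array of animal 10, 21 or 23 the higher calls were 214, 191 and 185 and the lower calls 87, 84 and 56. Without the other-set array of animal 14 the calls were 256 higher and 134 lower. Leaving out the other-set array of animal 11 or 23 left 310 or 309 higher and 192 or 208 lower. Without both arrays of animal 23, 82 genes were higher and 7 lower, and without both arrays of animal 10, 200 and 46. With quantile normalization of the arrays the split was 494 higher and 215 lower (69.7% higher, against 49.0% on the deposited scale). Centring each array on its median gave 470 and 320 (59.5% higher).

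Ppp2r1a encodes the scaffold subunit of protein phosphatase 2A, on which the catalytic and regulatory subunits assemble. Its log2 values were 9.53, 9.51 and 9.49 in the carcinoma sets of animals 10, 21 and 23. They were 7.70, 7.72, 7.54 and 7.68 in the other sets of animals 10, 11, 14 and 23. The 3 carcinoma-set values lay within 0.1 of each other and far above all 4 others. The difference was 1.85 ± 0.08 (SE), or 3.61-fold (limma adjusted p = 2.63e-05). A second probe set of the gene differed by 2.57 in the same direction. Ptpa, the activator of the phosphatase, was higher by 0.67 ± 0.10 (adjusted p = 0.00979). The other 15 of the 17 phosphatase subunit genes measured did not pass the test, and the list's median was 0.01.

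Gstm2 encodes a mu-class glutathione transferase. It measured 12.62, 12.48 and 12.64 in the carcinoma sets and 10.77, 10.44, 10.66 and 10.71 in the other sets. The groups did not overlap, and the difference was 1.94 ± 0.10 (limma adjusted p = 4.85e-05). Of 18 glutathione conjugation genes 4 were called higher, all of the mu class, and 1 lower. Gstm3 was higher by 1.5 ± 0.17, Gstm7 by 1.13 ± 0.17 and Gstm1 by 0.63 ± 0.10 (adjusted p = 0.00184, 0.00717 and 0.0106). Gsto1, of the omega class, was lower (-0.35, adjusted p = 0.0278), and 13 members did not pass. The list's median of 0.07 stood beside -0.09 for all genes. The mu-class genes are close in sequence, so a probe set of one can read RNA of another, and how far the 4 calls are separate measurements was not tested.

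Lbp and Mug1 led the plasma proteins. Lbp, the serum protein that binds bacterial lipopolysaccharide, measured 10.82, 10.46 and 10.53 in the carcinoma sets. In the other sets it measured 8.38, 7.75, 8.18 and 8.35. The highest of the 4 lay over 2 units below the lowest of the 3, a difference of 2.44 ± 0.16 or 5.41-fold (limma adjusted p = 0.000138).

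Mug1, a murinoglobulin that traps proteases in rodent plasma, measured 11.17, 11.08 and 11.36 against 8.40, 8.26, 8.67 and 8.96. Its difference was 2.63 ± 0.16, or 6.20-fold, again without overlap (limma adjusted p = 0.0001). Murinoglobulins and the related macroglobulins are alike in sequence, so this probe set may not read 1 gene alone. Crp, the pentraxin C-reactive protein, was higher by 1.36 ± 0.12 (adjusted p = 0.000516). Hpx, which binds free haem, was higher by 0.71 ± 0.08 (adjusted p = 0.00161), and Serpina3n, a protease inhibitor, by 0.70 ± 0.14 (adjusted p = 0.0239). These 5 were the called members among 23 acute phase and plasma proteins. The other 18 did not pass, none was called lower, and the list's median was 0.06.

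Zbtb41, a zinc finger protein gene, had the largest measured difference. Its values were 3.46, 3.62 and 3.35 in the carcinoma sets, where the signal was near the low end of the arrays, and 6.42, 6.51, 6.34 and 6.14 in the other sets. The measured difference was -2.87 ± 0.13, with no overlap (limma adjusted p = 2.63e-05). Whether the probe set was above background in the carcinoma sets was not tested, so no fold is given. Rab8b, a small GTPase of vesicle traffic, measured 6.14, 6.23 and 6.33 against 8.22, 7.97, 8.38 and 8.36. The difference was -2.0 ± 0.12 (SE), again without overlap (adjusted p = 0.0001). Its other probe sets did not move alike, at 0.15 and -1.39. Ddx6, an RNA helicase of mRNA decay, measured 8.04, 8.26 and 8.29 against 9.66, 9.67, 9.51 and 9.53, a difference of -1.40 ± 0.10 (adjusted p = 0.000146). Its other probe sets were at -0.17 and -1.01.

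**Figure D2:**
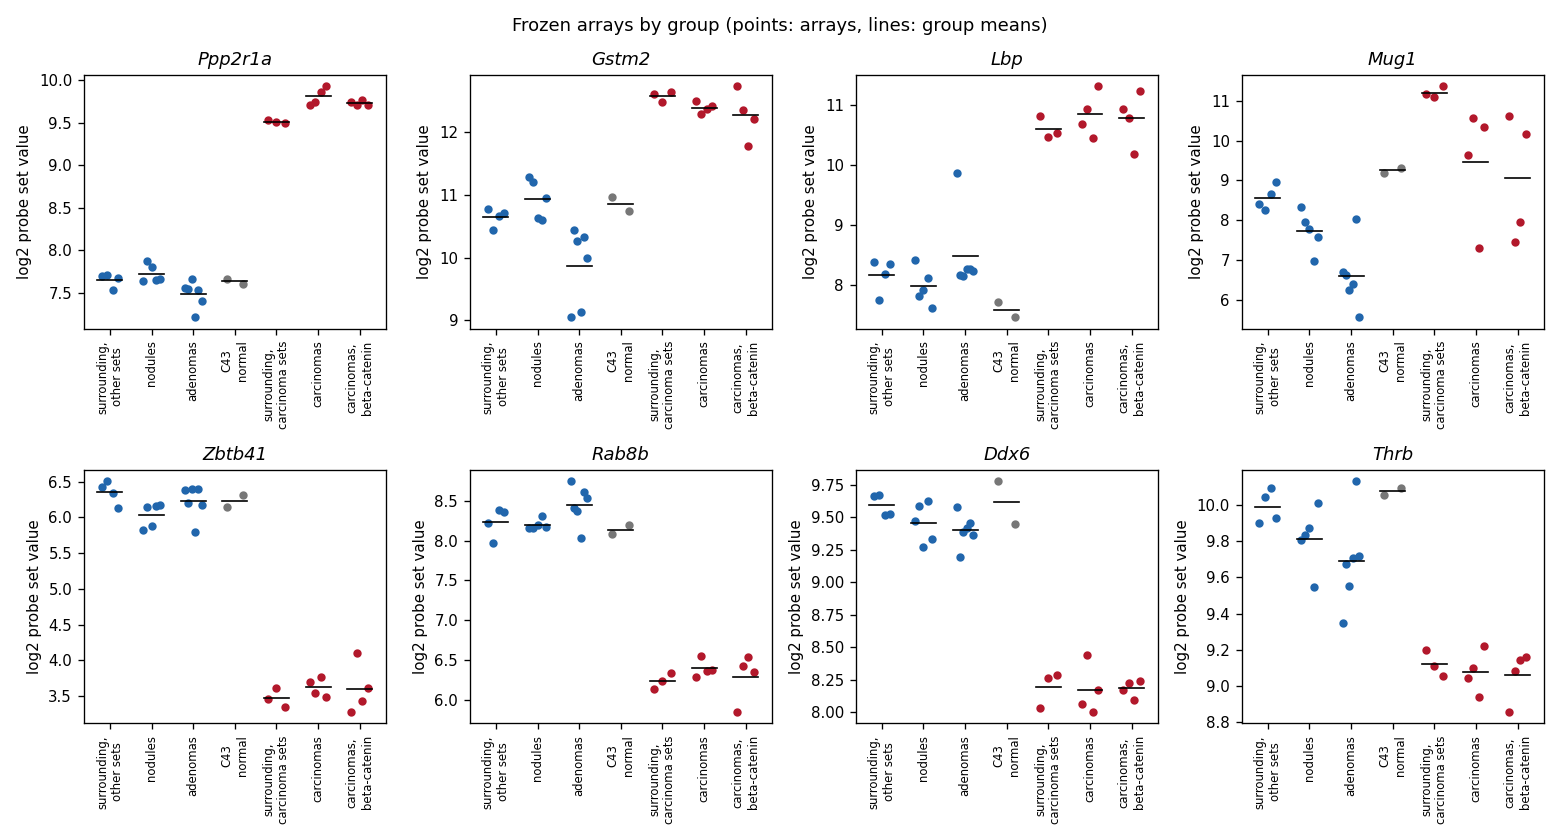
Log2 values of 8 genes on each frozen array, by group on the x axis, with a line at each group mean. Blue marks the other sets and their lesions, grey the 2 C43 arrays and red the carcinoma sets and their lesions. For Ppp2r1a the red points lie between 9.49 and 9.93 and the blue points between 7.22 and 7.88.

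A pair of acyl-CoA enzymes was among the largest higher genes. Acadsb, a dehydrogenase of short branched-chain acyl-CoA, was higher by 2.68 ± 0.31 (limma adjusted p = 0.00211). Its values were 8.11, 8.04 and 8.35 against 6.07, 4.55, 5.54 and 5.79, so the spread lay mostly among the other sets. Acox3, a peroxisomal acyl-CoA oxidase, measured 8.02, 7.67 and 7.83 against 5.46, 4.90, 5.47 and 5.55, a difference of 2.50 ± 0.17 (adjusted p = 0.000146). Neither gene overlapped between the groups. Of the 15 genes listed for fatty acid oxidation and ketone synthesis only Hadha, a subunit of the mitochondrial trifunctional protein, was called, at 0.59 ± 0.10 (adjusted p = 0.0138), and the list's median was -0.04. The other probe sets of Hadha were at -0.23 and -0.01.

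The remaining large higher genes had varied functions. Ly6e, a membrane-anchored surface protein, differed by 2.39 ± 0.18 with its brightest probe set (limma adjusted p = 0.000182), while its other probe set was at -0.34. Slc30a1, a zinc exporter, differed by 2.17 ± 0.22, and Gnai1, an inhibitory G protein subunit, by 1.99 ± 0.33. Slc30a1 lay at 3.48 to 4.22 in the other sets, near the low end of the arrays, and signal above background there was not tested. Man1a2, a Golgi mannosidase that trims glycans, differed by 1.96 ± 0.21, with a second probe set at 0.02. Lgals9, a galactoside-binding lectin, differed by 1.92 ± 0.19. Actr2-ps1 and LOC100912041 differed by 2.35 and 1.92. As in every called gene, the 3 and the 4 arrays did not overlap for these 7 genes. Their limma adjusted p-values lay between 0.000182 and 0.0119.

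Beyond the leading 3, the lower genes moved by less. Cpd, a carboxypeptidase of the secretory pathway, was lower (-0.97 ± 0.10), as was Emg1, a ribosome assembly methyltransferase (-0.94 ± 0.11). Thrb encodes the thyroid hormone receptor beta, the main thyroid receptor of liver. It measured 9.20, 9.11 and 9.05 against 9.90, 10.04, 10.09 and 9.93, a difference of -0.87 ± 0.09 (limma adjusted p = 0.00108). All 4 other sets exceeded all 3 carcinoma sets. The other probe sets of Thrb were at -0.41, -0.33 and 0.66, so 1 ran the opposite way. Mpv17l (-0.91), Zscan20 (-0.83), Taf5 (-0.83), Slc22a5 (-0.82), a carnitine transporter, Phf19 (-0.82) and Spice1 (-0.81) completed the 12 largest lower genes. The second probe sets of Mpv17l and Zscan20 were at 0.23 and 0.11, and that of Cpd at -0.20.

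Probe sets of 1 gene did not always move together. Where a called higher gene had other probe sets, 140 of 200 (70.0%) had the same sign. For called lower genes this held for 124 of 260 (47.7%), near the 52.4% found for genes not called. The rule for the value of a gene, its brightest probe set, therefore bears on the lower calls in particular. Of 24 named called genes with other probe sets, 9 had at least 1 of the opposite sign: Cyp51, Hadha, Ly6e, Mpv17l, Psmd11, Rab8b, Rbm5, Thrb and Zscan20. Averaging all probe sets gave 772 higher and 459 lower calls (62.7% higher). Under that rule 43 of the called genes changed sign. Cebpa showed the opposite case, with all 5 probe sets higher, by 0.99 to 2.27.

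Cebpa and Tat stood out among the hepatocyte markers. Cebpa, a transcription factor that keeps hepatocytes differentiated, measured 10.64, 10.68 and 10.54 in the carcinoma sets and 9.52, 9.42, 9.17 and 9.23 in the other sets. It was higher by 1.29 ± 0.10 (limma adjusted p = 0.000326), without overlap. Tat, tyrosine aminotransferase of amino acid breakdown, was higher by 1.45 ± 0.19 (adjusted p = 0.00394). The other 12 of 14 hepatocyte markers did not pass, and the median was 0.03. The list's mean log2 level was 12.5 to 12.6 per array in the carcinoma sets and 12.3 to 12.4 in the other sets. These means include Cebpa and Tat, and the other 12 differed by -0.13 to 0.43.

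Genes that respond to PB through CAR and PXR gave 6 higher and 1 lower call among 20 measured. Over all genes 3.08% were called higher and 3.2% lower. The list's median difference was 0.21, beside -0.09 for all genes. Tsku, a secreted proteoglycan, was higher by 0.89 ± 0.18 and Abcc3, an export pump for conjugates, by 0.78 ± 0.14 (limma adjusted p = 0.0263 and 0.0158). Nr1i2, the receptor PXR itself, was higher by 0.64 ± 0.10 (adjusted p = 0.0117). Ephx1, the microsomal epoxide hydrolase, was higher by 0.62 ± 0.10 (adjusted p = 0.0108) and Por, which feeds electrons to cytochromes P450, by 0.52 (adjusted p = 0.0138). Gstm1, given above, was the sixth. Gadd45b, a stress-induced regulator of growth arrest, was lower (-0.80 ± 0.18, adjusted p = 0.0385). The other 13 members did not pass, and all the cytochrome P450 genes measured in the list were among them. These were Cyp2b12 (-0.08), Cyp3a9 (-0.53), Cyp3a18 (0.06), Cyp2c6v1 (0.20) and Cyp2c7 (0.21). The labels give 1 dose of PB for both kinds of set.

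Among 17 targets of NRF2, a transcription factor active under electrophile stress, Gsr and Ephx1 were called higher. Gsr, which regenerates reduced glutathione, differed by 1.19 ± 0.19 (limma adjusted p = 0.0115). This list also had a median above that of all genes, 0.25. Gsr did not pass when animal was a block in a fit with the lesions (adjusted p = 0.0765), and neither did Gstm7 (adjusted p = 0.101).

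The metabolic zones of the lobule gave few calls. Of 16 periportal genes Tat and Ass1 were higher and Fbp1 lower. Ass1, of the urea cycle, measured 13.27, 13.21 and 13.22 against 12.42, 12.64, 12.44 and 12.02, a difference of 0.85 ± 0.13 (limma adjusted p = 0.01). Fbp1, of gluconeogenesis, was lower (-0.36 ± 0.09, adjusted p = 0.0498). Of 14 Wnt and pericentral genes only Gulo, the last enzyme of vitamin C synthesis, was called, at 0.63 ± 0.11 (adjusted p = 0.0147). Medians were -0.18 and -0.03.

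Fatty acid synthesis had 3 higher genes of 17 and none lower, with a median of 0.19. Pklr, liver pyruvate kinase, differed by 1.0 ± 0.24, Acacb, an acetyl-CoA carboxylase, by 0.98 ± 0.19, and Thrsp, a lipogenic nuclear protein, by 0.87 ± 0.17 (limma adjusted p = 0.0444, 0.0234 and 0.0224). Pklr and Thrsp did not pass with animal as a block in the fit with the lesions (adjusted p = 0.582 and 0.486). Of 15 cholesterol synthesis genes Nsdhl was higher (0.33 ± 0.08) and Cyp51 lower (-0.49 ± 0.12). The second probe set of Cyp51 stood at 0.67. Of 17 bile acid genes only Hsd3b7 was called, at 0.58 ± 0.12 (adjusted p = 0.0278). Of 16 fasting genes only Tat was called, though the list had the lowest median of all, -0.35. Tat, at 1.45, ran against that median. In this list 9 of 16 had an unadjusted limma p under 0.05, against 24.6% of all genes.

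Protein handling gave few called genes in each list, some of them with large differences. Hyou1 and Calr, chaperones of the endoplasmic reticulum, were higher by 1.35 ± 0.18 and 1.03 ± 0.12 (limma adjusted p = 0.00503 and 0.0023). Dnajc3, a co-chaperone, was lower (-0.44 ± 0.08, adjusted p = 0.0193), and 18 of the 21 genes listed for endoplasmic reticulum stress did not pass. Of the 21, 10 had an unadjusted limma p under 0.05, against 24.6% of all genes, and the list's median was 0.08. Psmb7, a catalytic proteasome subunit, measured 10.33, 10.16 and 10.32 against 9.07, 9.01, 8.80 and 8.83, a difference of 1.34 ± 0.10 (adjusted p = 0.000182). All 3 lay above all 4. Of its 27 proteasome genes Psmd3 was also higher (0.37) and Psmd11 lower (-0.36). The subunits of 1 complex thus differed by -0.36 to 1.34.

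A like pattern held in the respiratory chain. Cox4i1 was higher by 0.90 ± 0.13 and Ndufb3 lower (-0.49 ± 0.07), with 23 of 25 members not called. Of 29 splicing and RNA-binding factors Ddx17 (1.18) and Hnrnpd (0.75) were higher, and Hnrnpa1 (-0.48) and Rbm5 (-0.38) lower. Stip1, a co-chaperone, was the only call of 15 heat shock genes (0.94 ± 0.13, limma adjusted p = 0.00579). Zfp36, which destabilises mRNA, and Socs3, a feedback inhibitor of cytokine signals, were the only calls of 24 immediate early genes, at 1.22 ± 0.14 and 0.65 ± 0.14. Vegfa was the only one of 17 hypoxia genes (0.48). Gusb, at -0.48 ± 0.12, was the only one of 13 common reference genes.

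**Figure D3:**
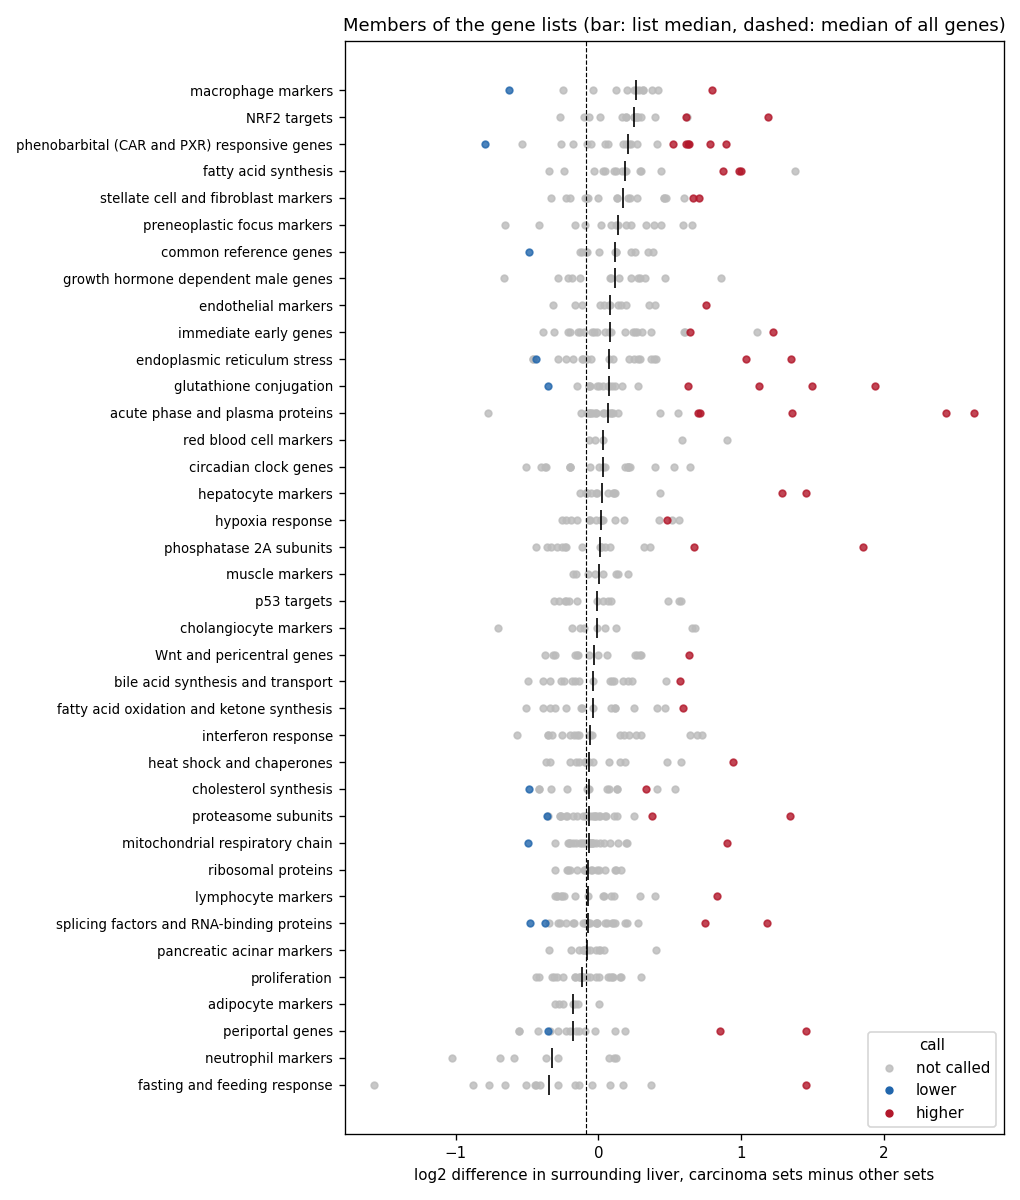
Each point is a measured member of a gene list, placed by its log2 difference in surrounding liver (carcinoma sets minus other sets). Red and blue mark called genes, the short bar is the list's median and the dashed line the median of all genes, -0.09. Most lists centre near the dashed line, with 1 or a few members far to the right.

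Several lists held no called gene by limma. Over all genes 3494 of 14217 (24.6%) had an unadjusted p under 0.05, the share to set beside each list. Among 15 markers of preneoplastic foci 3 had an unadjusted p under 0.05. Among 25 proliferation genes 1 did, among 20 interferon genes 5, among 19 clock genes 5, among 14 male growth hormone genes 2, among 13 p53 targets 2 and among 16 ribosomal protein genes 4. Of these lists the proliferation genes were furthest under the share of all genes, while the interferon, clock and ribosomal protein genes were near it. The proliferation genes were dim, with a mean log2 level per array of 4.95 to 5.49 in the carcinoma sets and 5.04 to 5.73 in the other sets. Whether this low level bears on their share was not tested. Gstp1, the classical focus marker, ran from 10.48 to 13.21 in the carcinoma sets and from 10.30 to 13.47 in the other sets. Its spread within each kind exceeded the difference of 0.23 ± 0.83 (adjusted p = 0.892). It was low in both pieces of animal 23 and high in both pieces of animal 10.

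Markers of other cells were measured beside these changes. Of 13 macrophage markers C1qb was higher (0.79 ± 0.15, limma adjusted p = 0.0174) and Cd163 lower (-0.63 ± 0.14, adjusted p = 0.0372). The list's mean log2 level spanned 9.10 to 9.53 in the carcinoma sets and 9.06 to 9.42 in the other sets. Of 15 lymphocyte markers Cd74, the invariant chain of antigen presentation, was higher (0.83 ± 0.17, adjusted p = 0.0239), with mean levels of 4.91 to 4.99 and 4.89 to 5.08. Col4a1 and Bgn of 18 stellate cell and fibroblast markers were higher (0.71 and 0.66), with mean levels of 6.85 to 7.40 and 6.76 to 7.07. Tie1 was the only endothelial call of 13 (0.75). The part of these cells in the other results was not tested.

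The neutrophil genes marked 1 piece. S100a8 measured 6.39, 5.77 and 4.59 in the carcinoma sets and 6.78, 9.35, 4.26 and 4.69 in the other sets, with animal 11 highest. The list's mean level was 4.36 to 4.98 in the carcinoma sets and 4.24 to 6.23 in the other sets. None of its 8 members was called by limma, and 1 had an unadjusted p under 0.05. No red cell, bile duct, adipocyte, pancreatic acinar or muscle marker was called either, where 2 of 5, 1 of 9, 1 of 7, 1 of 13 and 0 of 8 had an unadjusted p under 0.05, against 24.6% of all genes.

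Of the 72 named genes that were called, 62 kept their call with animal as a fixed block on the 7 arrays. The same block on the 26 frozen arrays kept 47. Among the smaller changes above, Ass1 (adjusted p = 0.304), Gulo (0.307), Fbp1 (0.238), Gadd45b (0.656) and Hsd3b7 (0.201) did not pass this limma fit. Nor did Cd74 (adjusted p = 0.18), Cd163 (0.456), Tie1 (0.113), Col4a1 (0.211) and Bgn (0.278), so no call in the lymphocyte, endothelial or stellate lists held there. Adjusted p-values were 0.643 for Nsdhl, 0.0667 for Cyp51, 0.0674 for Dnajc3, 0.131 for Psmd3, 0.182 for Ndufb3, 0.321 for Hnrnpa1 and 0.467 for Rbm5. They were 0.123 for Vegfa, 0.275 for Gusb, 0.187 for Phf19 and 0.194 for Slc22a5. On the 7 arrays alone the block gave 0.0547 for Abcc3, 0.0613 for Socs3 and 0.0516 for Psmd11. Each of these genes kept its direction.

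Animals 10 and 23 allowed the comparison within a liver. Ppp2r1a was higher in the carcinoma-set piece by 1.83 in animal 10 and by 1.81 in animal 23. The log2 differences of Zbtb41 were -2.96 and -2.78. All 893 called genes had the same sign in both animals, and all 893 had groups that did not overlap. These same arrays made the calls, so both counts describe the calls and do not support them. Over all genes 7.33% had non-overlapping groups in the higher direction and 16.8% in the lower. Across the 893 genes the differences of the 2 animals correlated at r = 0.943, and across all 14217 at 0.545. Each rests on 4 arrays, 2 of each animal.

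**Figure D4:**
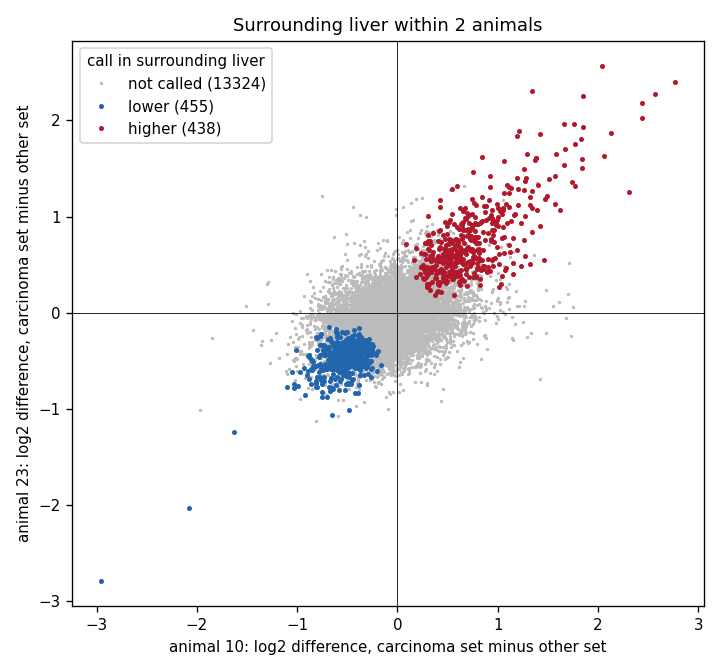
Each point is a gene, with the log2 difference between the 2 pieces of animal 10 on the x axis and of animal 23 on the y axis (carcinoma set minus other set). The 438 red and 455 blue genes, called in the fit that includes these arrays, lie in the upper right and the lower left.

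Each kind of set had its own lesions, and these arrays had no share in the calls. Carcinomas were therefore compared with nodules and adenomas for the same genes, where type of lesion and kind of set cannot be told apart. Of the 438 higher genes 423 were also higher on average in the carcinomas, against 38.4% of all genes. Of the 455 lower genes 445 were also lower, against 61.6% of all genes. In 203 of the 438 (46.3%) every carcinoma exceeded every nodule and adenoma, against 2.2% of all genes. In 110 of the 455 (24.2%) every carcinoma lay below, against 1.74%. In none of the 893 did the lesions separate the opposite way. The sizes were alike too, with a mean absolute difference of 0.658 in surrounding liver and 0.621 in lesions.

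Within animals the lesions ran the same way. By their titles, animal 10 had 2 nodules and 2 carcinomas, and animal 23 had 3 adenomas and 3 carcinomas. A further carcinoma titled for animal 21 carries 23 in another label field and was not counted with animal 23. The sign seen in surrounding liver recurred in the lesions of both animals for 402 of the 438 higher and 423 of the 455 lower genes, against 51.6% of all genes. Ppp2r1a differed between the lesions by 1.97 in animal 10 and 2.41 in animal 23. For Rab8b the lesion differences were -2.10 and -1.98, beside -2.0 in surrounding liver.

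**Figure D5:**
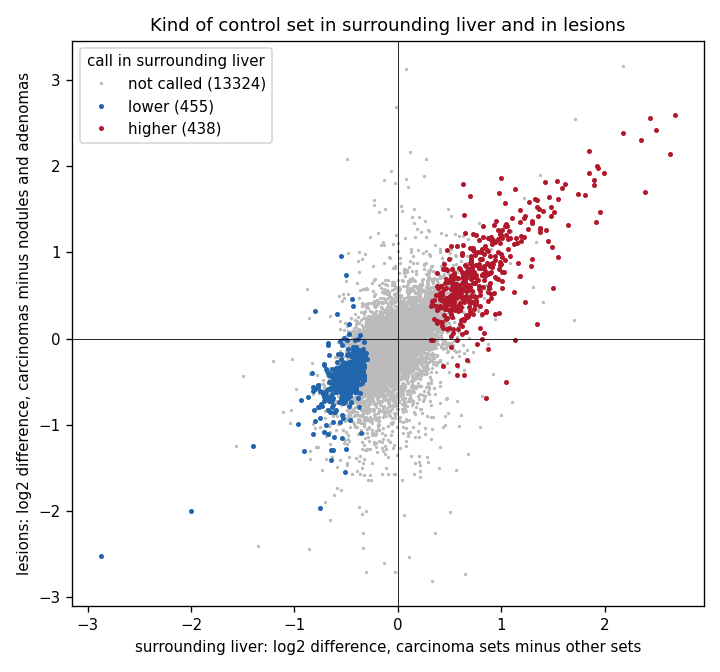
Each point is a gene, with its log2 difference by kind of control set in surrounding liver on the x axis and the difference of carcinomas minus nodules and adenomas on the y axis. The 893 called genes, red and blue, follow a diagonal with r = 0.924, while all genes together have r = 0.629.

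The difference of the 2 differences was itself fitted on the 26 frozen arrays, after the values had been seen. The fit had no term for animal, so arrays of 1 animal were treated as independent. limma called no gene, and 748 of the 14217 had an unadjusted p under 0.05, 68 of them among the 893. For Lbp the surrounding difference minus the lesion difference was -0.12 ± 0.38 (SE), and for Rab8b 0.00 ± 0.18. For Mug1 it was 0.49 ± 0.80, since the carcinomas ranged from 7.31 to 10.6. Missing the threshold does not show that the effects were equal.

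The 4 leading markers show how the lesions sat. Ppp2r1a ranged from 9.70 to 9.93 in the carcinomas and from 7.22 to 7.88 in the nodules and adenomas. Gstm2 ranged from 11.8 to 12.7 and from 9.05 to 11.3, and Lbp from 10.2 to 11.3 and from 7.61 to 9.86. For these 3 no lesion of one kind reached the other. Not every lesion lay near its own surrounding liver: 1 adenoma of animal 14 held the 9.86 for Lbp, well above the other sets, and Gstm2 was at 9.05 and 9.12 in 2 adenomas, well below them. Mug1 did overlap in the lesions, with nodules and adenomas at 5.57 to 8.34.

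The C43 liver had no lesion set in this comparison. Its frozen mean was nearer to the other sets for 417 of the 438 higher genes (95.2%) and 404 of the 455 lower genes (88.8%), where 64.4% of all genes were nearer to them. This held for all 85 genes at least 2-fold higher. C43 arrays gave 7.66 and 7.61 for Ppp2r1a, 7.71 and 7.46 for Lbp and 6.15 and 6.31 for Zbtb41. All 6 values lay near those of the other sets. Not every gene did so: C43 gave 9.20 and 9.31 for Mug1 and 6.72 and 6.70 for Acadsb. These lay above all the other sets and below all the carcinoma sets, so nearer does not mean alike. The 4 arrays of formalin-fixed surrounding liver, cut by laser and extracted with another kit, gave 9.75 to 10.1 for Ppp2r1a and 11.0 to 11.9 for Lbp. For these genes the fixed liver lay above the carcinoma sets, on a scale whose match between fixations was not tested. The fixed lesions of the series were foci and adenomas, with no carcinoma among them. Animals 10 and 14 gave fixed pieces as well as frozen other sets, and the frozen ones read 7.70 and 7.54 for Ppp2r1a.

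Because the controls differed, the reading of a carcinoma depended on which control it met. Cebpa in carcinomas stood at -1.15 against the carcinoma sets and at 0.13 against the other sets. Tat stood at -1.31 and 0.14, Acadsb at -1.04 and 1.64, and Mug1 at -1.94 and 0.69. For these 4 genes the sign turned with the control. Zbtb41 gave 0.14 and -2.73, and Ppp2r1a 0.26 and 2.11. For Zbtb41 and Ppp2r1a most of the distance was between the 2 controls. These pairs of values share the 8 carcinomas, and no test was made on them.

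In 25 called genes the sign in the lesions was opposite, and those named here were chosen after their values were seen. With animal as a block, 11 of the 25 were called on the 7 arrays and 1, Cd7 (limma adjusted p = 0.0162), on the 26 arrays. There S100a11 and Cdkn2a had adjusted p-values of 0.286 and 0.644. Ass1 differed by 0.85 in surrounding liver and -0.69 between the lesions, but by 0.30 and 0.18 within animals 10 and 23. S100a11, a calcium-binding protein, differed by 1.04 and -0.50, with 2.33 in the lesions of animal 10 and -0.67 in those of animal 23. Cdkn2a, an inhibitor of cell cycle entry, differed by -0.50 in surrounding liver and by 0.74 between the lesions, 0.85 in animal 10 and 1.01 in animal 23. Its means in surrounding liver were 3.40 in the carcinoma sets and 3.91 in the other sets, near the low end of the arrays. Whether Cdkn2a was above background there was not tested. Of these 3 only Cdkn2a was opposite in the lesions of both animals. For all 25 genes the test of the difference missed the threshold (limma adjusted p from 0.950 to 0.961).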

How the data were processed

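RNA was extracted from frozen liver with TRIzol and a miRNeasy column, and 250 ng was amplified with the Affymetrix 3' IVT Express kit, per the labels' protocols. The authors deposited log2 values of 31042 probe sets; their background correction and normalization are not given in the sources used here. Of these probe sets 20826 had 1 gene symbol, 436 several and 9780 none. Where several probe sets named 1 gene, the brightest on average over the 7 arrays stood for it, which left 14217 genes. limma 3.58.1 in R 4.3.3 compared group means with an intensity trend and Benjamini-Hochberg adjustment over all genes, with 5 residual degrees of freedom. The script was tested on simulated data with independent arrays, so that test did not cover the pairing within animals.

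Genes named were the 4 given markers, the 12 largest called differences in each direction, and up to 4 called members of each of 38 gene lists. The 12 in each direction also had to show no overlap and the sign of the fit in animals 10 and 23, which all called genes did. In lists with no called member, up to 2 with the lowest p were selected, and the 2 brightest of each cell type list were selected as well. Genes outside this rule are Serpina3n, Por, Gsto1, Gstp1, the cytochrome P450 genes of the PB list and those opposite in lesions, chosen after their values were seen. The members and lists were chosen with earlier results of these data known.

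Animals 10 and 23 gave both kinds of piece, so animal pairs those samples. Deviations from the group means correlated at r = 0.505 and 0.537 within them. Between pieces of different kind from different animals the median was -0.168. The animal was read from the title. For 3 of the 4 samples titled for animal 21 another label field names a different animal: 24 for the surrounding piece, and 22 and 23 for 2 carcinomas. The effect of reading that field in the block fits was not tested. The number of arrays limits the precision. Alternatives covered scaling, filtering, the probe set rule, variance models, replicates left out and animal as a block. No probe sequences or coordinates were used.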

Additional observations from a re-analysis of the deposited data

Results flagged for a closer look

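Among 117 genes examined in the 4 other sets, 1 array stood apart from its group in 3, by Dixon's test at the 95% level. Chance gives about 1 in 20 groups. Acox3 was lowest in animal 11, at 4.90, with the next value at 5.46. Hsd3b7 was also lowest in animal 11, at 9.67, next to 10.04. Phf19 was lowest in animal 14, at 7.38, next to 7.88. For all 3 genes these arrays still fell on their own side of the carcinoma sets.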

How the results depend on the processing

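The 438 higher and 455 lower calls became 85 and 3 when a 2-fold change was also required. Quantile normalization gave 215 lower calls, all among the 455, and the mean of all probe sets gave 772 higher calls. With animal as a random replicate block the counts were 839 and 1633, and this block kept all 893 calls. With animal as a fixed replicate block the counts were 424 and 428 on 7 arrays, with 1 residual degree of freedom, sharing 326 and 232 genes with the main calls. On the 26 frozen arrays the block gave 323 and 423, sharing 272 and 220. Leaving out 1 array gave 185 to 434 higher and 56 to 322 lower calls. Without both arrays of animal 10 they were 200 and 46, and of animal 23, 82 and 7. Fewer arrays were fitted there. The other alternatives kept both counts within 1.5 times. Under the mean of all probe sets Cyp51 turned to 0.091 and Nr1d2, not called at -0.36, to 0.62, since their probe sets disagree. Of 72 named called genes the settings kept 26 to 72, the fewest without both arrays of animal 23, and Cyp51 was the only one to change sign. Dim genes gave few calls, so a difference there may not be detectable.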
